A study of Homo sapiens with 6 samples.

Results

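The genes described here are 58 genes that human cells use to enter S phase and copy their DNA. They were chosen by name from what each is known to do, with earlier results of these data known. All 58 were found among the 18358 genes of the deposited gene table. They fall into 6 roles, with 9 genes of origin licensing, 12 of the replicative helicase, 22 of the sliding clamp, polymerases and fork, 4 of nucleotide supply, 6 regulators of the G1/S step and 5 of chromatin assembly and histone supply. RNA-seq was made from ME180, an established line of human cervical epidermoid carcinoma, in 3 libraries labelled VPS13C knockout (cells given a single-guide construct, sgVPS13C) and 3 libraries labelled vector. Both groups were kept for 48 h in 2 µM cisplatin, a drug whose platinum atom forms crosslinks in DNA, and untreated cells were not analysed here. Neither a pool nor a single clone is named for the knockout cells, and replicates are not said to be separate cultures, so the p-values rest on the scatter of the 6 libraries, part or all of which may be technical.

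DNA replication is prepared in G1, when the origin recognition complex, CDC6 and CDT1 load the ring-shaped MCM2-7 helicase onto DNA. At the G1/S step, cyclin E with CDK2 helps to release E2F transcription factors from RB, and E2F raises the transcription of many replication genes. In S phase the helicase is switched on by CDC45 and GINS, and the PCNA clamp, loaded by replication factor C, holds the polymerases on the template. Cisplatin crosslinks block moving forks, and cells answer with checkpoints that slow S phase. In bulk RNA a smaller share of cells in one stage of the cycle and less RNA per cell cannot be told apart.

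Total counts ran from 14774065 to 15411001 in the knockout libraries and from 15767003 to 15799149 in the vector libraries. VPS13C, which encodes a lipid transfer protein, averaged 23.7 ± 5.00 CPM (library-scaled read counts) in knockout libraries and 37.8 ± 9.30 CPM in vector libraries (SD, n = 3 each), a log2 fold change of −0.67 that missed the threshold (edgeR quasi-likelihood adjusted p = 0.0513). The 9 squamous epithelial markers summed to 19627 to 24073 CPM in knockout libraries and 12161 to 15676 CPM in vector libraries, with KRT5 alone at a mean of 11761 CPM in knockout libraries and 6401 CPM in vector libraries. EPCAM fell (−0.72, edgeR quasi-likelihood adjusted p = 0.00104), and KRT17 and CDH1 had −0.23 and −0.13. Fibroblast markers (5 of 6 measured, mostly COL1A1) summed to 47.0 to 50.3 CPM in knockout libraries and 37.0 to 44.2 CPM in vector libraries. DCN among them rose (3.63, edgeR quasi-likelihood adjusted p = 6.08e-05), and COL1A1 had 0.13. Endothelial markers (4 of 4, mostly VWF) summed to 21.7 to 24.8 CPM in knockout libraries and 7.996 to 8.37 CPM in vector libraries. CDH5 among them went the other way, with means of 0.152 CPM in knockout libraries and 2.27 CPM in vector libraries. Its log2 fold change was −3.07 (edgeR quasi-likelihood adjusted p = 0.00139). Leukocyte markers (5 of 5, mostly CD68) were lower, at 41.7 to 46.3 CPM in knockout libraries and 71.9 to 86.0 CPM in vector libraries. PTPRC and CD3E had 0 counts in all knockout libraries. The part of these marker differences in the results was not tested. Levels in single libraries leaned on gene length, by 0.13, −0.12 and 0.05 log2 units per doubling of length in knockout replicates 1 to 3 and 0.12, −0.12 and −0.06 in vector replicates 1 to 3. Its part in the results was not tested beyond a fit with the trend removed.

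Many of the 58 genes are textbook targets of E2F, and their promoter sequences were searched for its motif. The RefSeq promoter table (GRCh38.p14, 250 bases before to 50 after the gene start) held 49 of the 58. In 43 of the 49 the window began 250 bases before the start of the RefSeq gene span. The windows of CDC45, ORC1, POLD2, PRIM2, RRM2 and UHRF1 did not and were kept in the shares. An E2F-type motif was spelled TTTCCCGC, TTTCGCGC, TTTGGCGC or TTTGCCGC on either strand, with matches allowed to overlap. It occurred in 22 of the 49 promoters (44.9%), against 5.27% of 11129 promoters of tested genes and 3.33% of all 27305 promoters. It occurred in 6 of 12 promoters of genes that fell, in both promoters of the genes that rose and in 14 of 35 promoters of genes that were not called. The CCAAT box, on either strand, occurred in 57.1% of the 49 and 36.5% of promoters of tested genes. The stretches below lie before the annotated gene start, with matches in capitals. They are shown because the same motif stands before genes that fell (GINS2, MCM7, RFC3), genes that rose (POLA1, POLA2) and genes not called (E2F1, MCM6, PCNA). The MCM6 and E2F1 stretches each hold 2 matches, which overlap in MCM6.
GINS2, minus strand, chr16:85688958-85689005: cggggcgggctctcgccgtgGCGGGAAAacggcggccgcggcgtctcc
MCM7, minus strand, chr7:100101398-100101426: cggtcacgtggggggcgacgTTTCGCGCc
RFC3, plus strand, chr13:33818074-33818121: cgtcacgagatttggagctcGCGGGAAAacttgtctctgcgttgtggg
POLA1, plus strand, chrX:24693761-24693808: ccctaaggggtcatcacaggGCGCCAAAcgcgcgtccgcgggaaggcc
POLA2, plus strand, chr11:65261889-65261936: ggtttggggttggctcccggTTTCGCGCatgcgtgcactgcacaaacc
E2F1, minus strand, chr20:33686386-33686438: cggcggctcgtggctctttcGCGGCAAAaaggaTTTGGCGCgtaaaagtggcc
MCM6, minus strand, chr2:135876502-135876553: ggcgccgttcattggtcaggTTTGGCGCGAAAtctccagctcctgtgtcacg
PCNA, minus strand, chr20:5126654-5126701: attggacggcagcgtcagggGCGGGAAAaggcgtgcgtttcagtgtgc
A match describes letters in this window and not binding. CDC6 and MCM2, whose matches lie after the gene start, and TIPIN, ORC6, RFC4 and SLBP, with no match in the window, are not printed.

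The 58 genes were lower in the knockout libraries more often than higher, by small amounts. All 58 passed the filter on low counts. Of these, 15 fell and 2 rose at a Benjamini-Hochberg adjusted p under 0.05 (edgeR quasi-likelihood test, adjusted over all genes tested), and 41 were not called. Over all 13717 genes tested 17.4% fell and 17.8% rose, 35.1% in either direction, so the share of members called in either direction (29.3%) was not above the background, the share that fell (25.9%) was above it and the share that rose (3.45%) was below it. The median log2 fold change was −0.17 over the members and 0.00 over all genes tested, and 42 of 58 members had a negative value. None of the members that changed did so 2-fold or more, while 1680 of the genes called overall did, and the members ran from −0.70 (CDC6) to 0.61 (POLA1). In 26 members all 3 knockout libraries were below all 3 vector libraries and in 6 they were above, against 24% and 24.5% of genes tested. Together the 58 genes held 6163, 6232 and 6098 CPM in knockout libraries and 6801, 6998 and 6946 CPM in vector libraries, a ratio of means of 0.891. Of the 58 members, 6 fell without knockout replicate 3, 7 without vector replicate 3 and 9 without knockout replicate 1. The shares of all genes that fell were then 10.6%, 11% and 13%. The share of members that fell was thus not above that of all genes without knockout replicate 3. It was only a little above it without vector replicate 3 or knockout replicate 1. POLA1 was no longer called without knockout replicate 3.

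**Figure D1:**
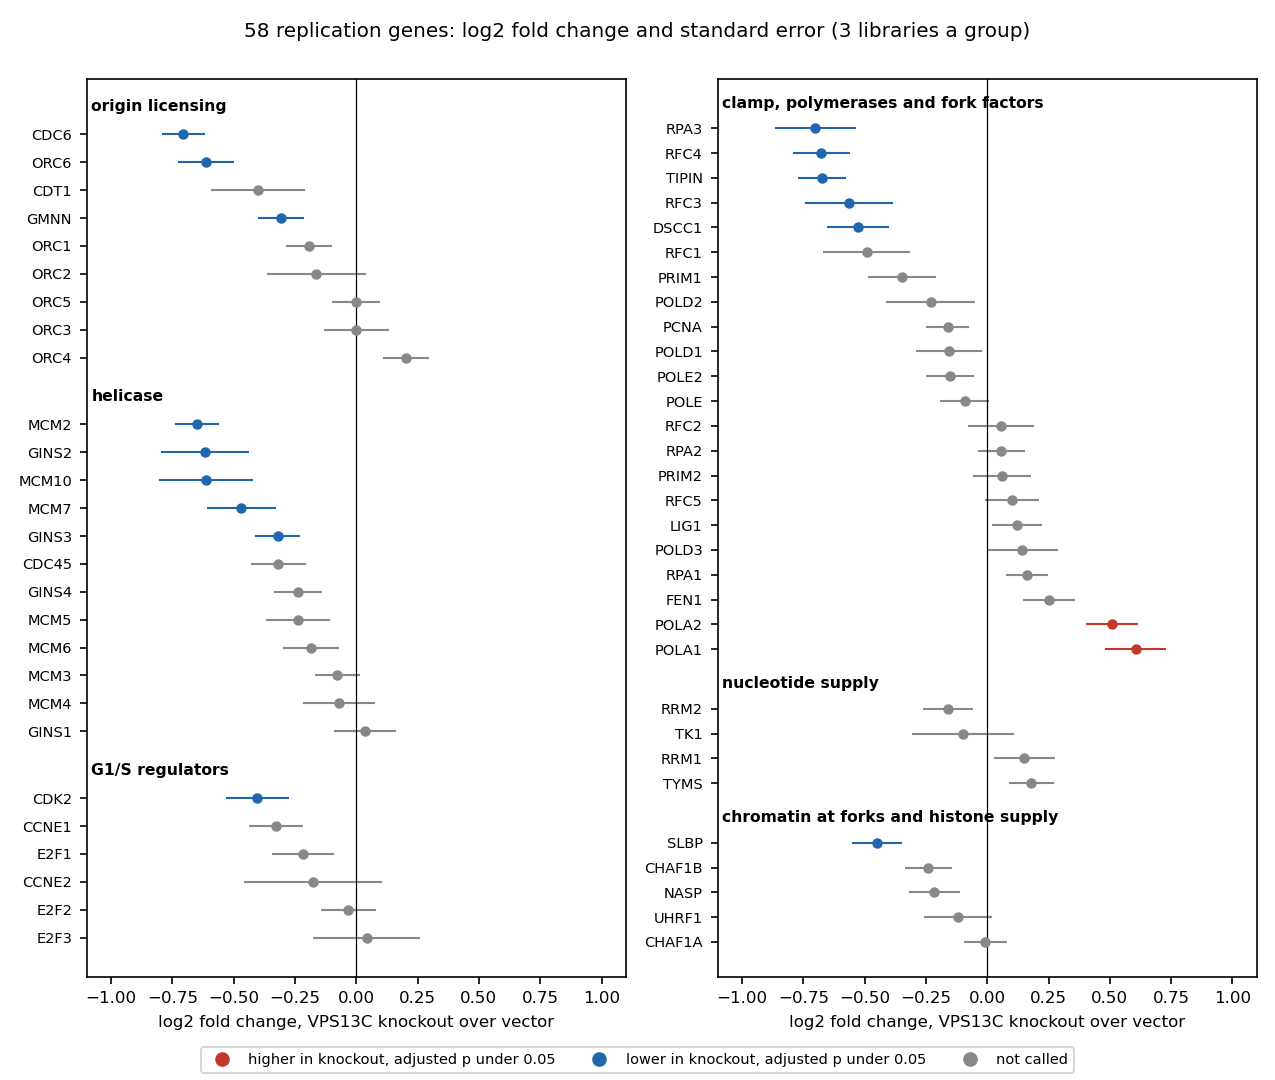
Log2 fold change (VPS13C knockout over vector, x axis) of each of the 58 genes by role, with the standard error as a bar; blue points fell, red points rose and grey points were not called at an adjusted p under 0.05. Blue points stand in 5 of the 6 roles, the 2 red points are POLA1 and POLA2, and no gene of nucleotide supply is coloured.

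Among the licensing genes, 3 of 9 fell (33.3%, against 17.4% of all genes tested) and 0 rose (against 17.8%), with a median of −0.19. CDC6 (gene 990, chromosome 17, 40287879 to 40304657), the ATPase that helps to load MCM2-7, had 120.5, 108 and 116 CPM in knockout libraries and 191, 187 and 184 CPM in vector libraries. The groups lay far apart relative to their spread, and the log2 fold change was −0.70 ± 0.09 (SE; edgeR quasi-likelihood adjusted p = 0.00105), the smallest p of the 58. ORC6 (gene 23594, chromosome 16, 46689659 to 46698394), the smallest subunit of the origin recognition complex, had 26.9, 23.2 and 26.4 CPM in knockout libraries and 42.5, 38.6 and 36.2 CPM in vector libraries. It fell with a log2 fold change of −0.61 ± 0.11 (SE; edgeR quasi-likelihood adjusted p = 0.00561), again without overlap. GMNN, which encodes geminin, the inhibitor of CDT1, had 73.9, 68.8 and 68.2 CPM in knockout libraries and 90.9, 88.3 and 81.8 CPM in vector libraries. Its fall of −0.31 ± 0.09 (adjusted p = 0.0402, edgeR quasi-likelihood test) was lost without any 1 of the 6 libraries (adjusted p from 0.0668 to 0.142).

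CDT1 itself (chromosome 16, 88803789 to 88809258), the partner of CDC6 in MCM loading, had 116, 162 and 117 CPM in knockout libraries and 136, 200.1 and 186 CPM in vector libraries. The groups overlapped, and the log2 fold change of −0.40 ± 0.19 was not called (edgeR quasi-likelihood adjusted p = 0.15). It was called without vector replicate 1 (−0.56, adjusted p = 0.0324) or knockout replicate 2 (−0.58, adjusted p = 0.0367). A fit with a block for the replicate number also called CDT1 (edgeR quasi-likelihood adjusted p = 0.0022), with or without the length trend removed. That block alone called 28.4% of all genes lower. The other subunits of the origin recognition complex were not called. ORC1, ORC2, ORC3, ORC4 and ORC5 had log2 fold changes of −0.19, −0.16, 0.00, 0.20 and 0.00. Measured per length, as a share of the summed TPM (length-scaled abundance) of ORC1 to ORC6, ORC6 was 21.6, 21.9 and 21.8% in knockout libraries and 31.0, 30.5 and 28.9% in vector libraries, while ORC4 was 25.7, 26.9 and 24.3% in knockout libraries and 19.3, 19.5 and 21.4% in vector libraries. The groups did not overlap in either share. ORC3 and ORC5 also took larger shares in every knockout library, with means of 19.4 and 15.2% in knockout libraries and 17.6 and 13.7% in vector libraries. Shares sum to a fixed total, and differences between subunits were not tested. The counts of ORC4 held fractions in all 6 libraries and its span overlaps ACVR2A and MBD5, so its level is uncertain.

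Of the 12 helicase genes 5 fell (41.7%, against 17.4% of all genes tested) and 0 rose (against 17.8%). In 11 of 12 the log2 fold change was negative (median −0.28). MCM2 (gene 4171, chromosome 3, 127598411 to 127622436), a subunit of the MCM2-7 ring, had 219, 211 and 224 CPM in knockout libraries and 359, 327 and 339 CPM in vector libraries. Its log2 fold change was −0.65 ± 0.09 (SE; edgeR quasi-likelihood adjusted p = 0.00161) and the highest knockout library was well under the lowest vector library. MCM7 (chromosome 7, 100092728 to 100101397), another ring subunit, had 239, 292 and 239 CPM in knockout libraries and 300.4, 394 and 372 CPM in vector libraries. It overlaps AP4M1 on the opposite strand over 604 bases. It fell with −0.47 ± 0.14 (adjusted p = 0.0385, edgeR quasi-likelihood test), and knockout replicate 2 came close to vector replicate 1. MCM5, MCM6, MCM3 and MCM4 were not called, with log2 fold changes of −0.24, −0.18, −0.08 and −0.07. As a share of the summed TPM of the 6 ring genes, MCM2 was 16.9 ± 0.99% in knockout libraries and 21.2 ± 1.9% in vector libraries, and MCM3 was 20.9 ± 1.2% in knockout libraries and 17.5 ± 1.3% in vector libraries (SD, n = 3 each). MCM2 was below MCM7 in TPM in every library of both groups.

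The helicase activators were mixed. GINS2 (chromosome 16, 85676198 to 85688954), a subunit of the GINS ring that joins MCM2-7 and CDC45, had 53.1, 69.1 and 52.6 CPM in knockout libraries and 70.0, 103 and 95.0 CPM in vector libraries. GINS3 (chromosome 16, 58392471 to 58406147), a second subunit, had 39.8, 38.4 and 40.3 CPM in knockout libraries and 50.9, 48.5 and 48.8 CPM in vector libraries. Both fell without overlap of the groups, GINS2 with −0.62 ± 0.18 (adjusted p = 0.0344) and GINS3 with −0.32 ± 0.09 (adjusted p = 0.0304; SE, edgeR quasi-likelihood test). MCM10, which helps to start the helicase, fell with −0.61 ± 0.19 (edgeR quasi-likelihood adjusted p = 0.0434). CDC45, which joins GINS at the helicase, and GINS4 (−0.32 and −0.24) were not called, and GINS1 had 0.04. CDC45 was called by DESeq2, with library size only, with the length trend removed, in both FPKM fits, with a replicate block and without vector replicate 1. GINS4 was called with the length trend removed or a replicate block. The replicate block called 28.4% of all genes lower, against 17.4% without it. The calls of GINS2, GINS3, MCM7 and MCM10 leaned on single libraries. That of GINS3 was lost without any 1 of the 6 (edgeR quasi-likelihood adjusted p from 0.0546 to 0.103). Those of GINS2 and MCM7 were lost without vector replicate 2 or 3 or knockout replicate 1 or 3 (from 0.0917 to 0.117 and from 0.0986 to 0.127), and that of MCM10 without vector replicate 1 or 3 or knockout replicate 2 or 3 (from 0.0751 to 0.133). CDC6, ORC6 and MCM2 were called whichever library was left out.

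**Figure D2:**
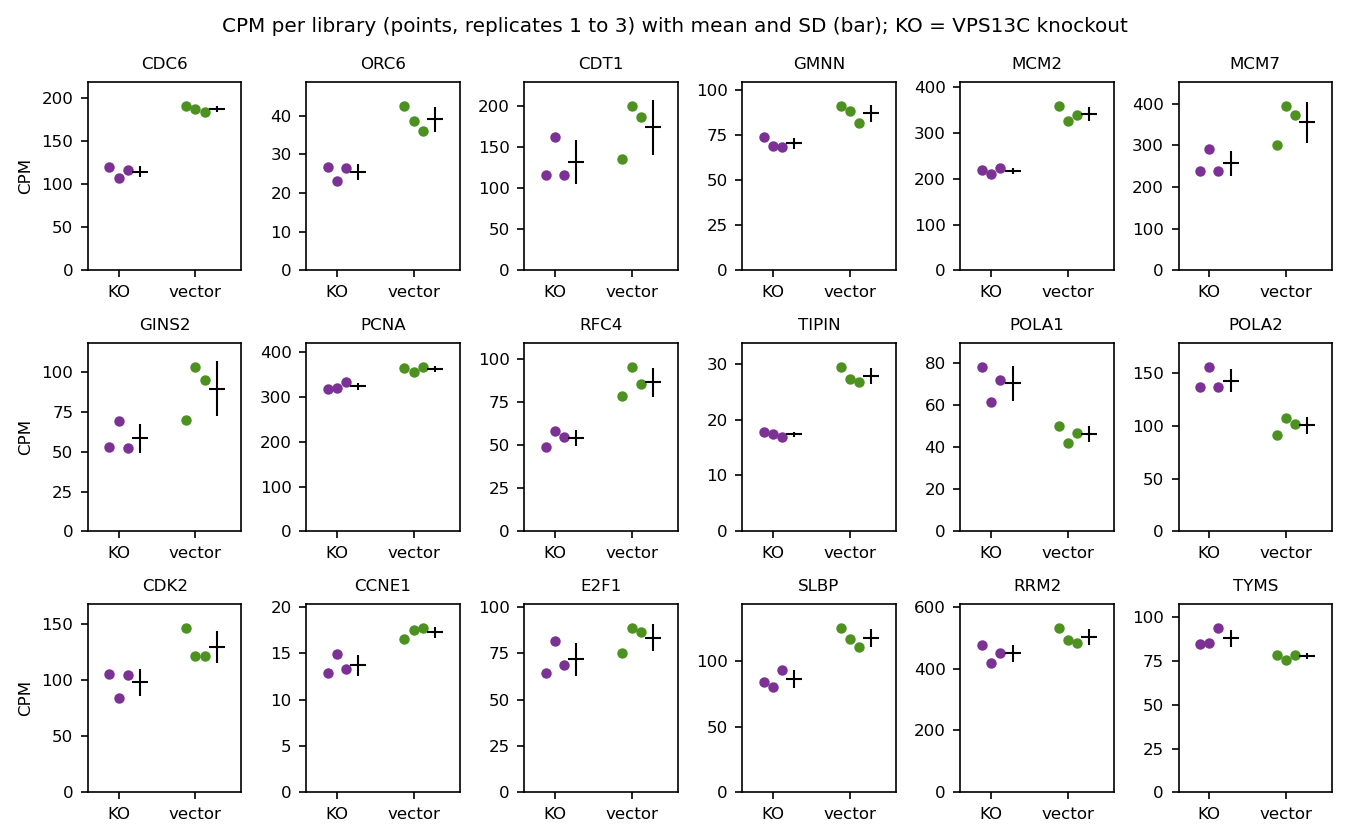
CPM of 18 genes (y axis, from 0) in each VPS13C knockout (KO, left, purple) and vector (right, green) library, with the mean and SD beside the points. CDC6, ORC6, MCM2, RFC4, TIPIN and SLBP are lower in every knockout library, POLA1 and POLA2 are higher in every knockout library, and the groups overlap for CDT1 and E2F1.

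Of the 22 genes of the clamp, polymerases and fork, 5 fell (22.7%, against 17.4% of all genes tested) and 2 rose (9.09%, against 17.8%). Their median was −0.12. TIPIN (gene 54962, chromosome 15, 66336191 to 66386717), which with TIMELESS stabilises stalled forks and passes on the S-phase checkpoint signal, had 17.8, 17.4 and 16.8 CPM in knockout libraries and 29.4, 27.2 and 26.7 CPM in vector libraries. RFC4 (chromosome 3, 186789900 to 186806482), a small subunit of the clamp loader, had 49.2, 58.1 and 55.0 CPM in knockout libraries and 78.8, 95.4 and 85.6 CPM in vector libraries. Both fell by similar amounts, −0.67 ± 0.10 for TIPIN (adjusted p = 0.00205) and −0.68 ± 0.12 for RFC4 (adjusted p = 0.00414; SE, edgeR quasi-likelihood test), and kept the call whichever library was left out. RPA3, the smallest subunit of the protein that coats single-stranded DNA, fell with −0.70 ± 0.16, RFC3, another small subunit of the clamp loader, with −0.56 ± 0.18, and DSCC1, a subunit of the alternative CTF18 clamp loader, with −0.53 ± 0.13 (SE; edgeR quasi-likelihood adjusted p = 0.0156, 0.0477 and 0.0165). The gene spans of RPA3 and UMAD1 overlap over 77856 bases, though the counts of RPA3 held no fractions. Those of TIPIN held fractions in 5 libraries, so its level is uncertain. The call of RPA3 was lost without vector replicate 3 or knockout replicate 3 (adjusted p = 0.0546 and 0.0634), and that of DSCC1 without knockout replicate 3 (0.0619, edgeR quasi-likelihood test). That of RFC3 held only without vector replicate 2 and was otherwise lost (adjusted p from 0.0534 to 0.123).

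The catalytic subunit of DNA polymerase alpha and its B subunit, which start each new strand together with primase, were higher. POLA1 (gene 5422, chromosome X, 24693918 to 24996986) had 78.2, 61.8 and 71.9 CPM in knockout libraries and 50.0, 42.3 and 46.8 CPM in vector libraries. POLA2 (gene 23649, chromosome 11, 65261962 to 65305985) had 137, 156 and 137 CPM in knockout libraries and 91.9, 107 and 102 CPM in vector libraries. Neither overlapped between groups. The counts of POLA2 held fractions in all 6 libraries, which can mark reads shared with another feature, so its level is uncertain. The log2 fold changes were 0.61 ± 0.13 for POLA1 (adjusted p = 0.00922) and 0.51 ± 0.10 for POLA2 (adjusted p = 0.00879; SE, edgeR quasi-likelihood test). Without knockout replicate 3 POLA1 just missed the threshold (0.58, edgeR quasi-likelihood adjusted p = 0.0515). The primase genes of the same complex, PRIM1 and PRIM2, had log2 fold changes of −0.35 and 0.06 and were not called. As shares of the summed TPM of these 4 genes, PRIM1 was 29.6 ± 2.8% in knockout libraries and 42.3 ± 2.0% in vector libraries, and POLA2 was 46.4 ± 4.0% in knockout libraries and 36.1 ± 2.0% in vector libraries (SD, n = 3 each). The groups did not overlap for either share.

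PCNA, the sliding clamp, was the most abundant of the 58 per length, with a mean of 454 TPM in knockout libraries and 511 TPM in vector libraries. It had 318, 319 and 333 CPM in knockout libraries and 364, 355 and 367 CPM in vector libraries, which did not overlap. The difference was small, −0.16 ± 0.09 on the log2 scale, and was not called (edgeR quasi-likelihood adjusted p = 0.197). The genes of DNA polymerases delta and epsilon, POLD1, POLD2, POLD3, POLE and POLE2, had log2 fold changes between −0.23 and 0.14 with none called. LIG1, which seals nicks between new fragments, and FEN1, which trims their flaps, had 0.12 and 0.25 and were not called either. RPA1 and RPA2 had 0.16 and 0.06, and RFC1, RFC2 and RFC5 had −0.49, 0.05 and 0.10. Within the RPA trimer, RPA3 made up 13.3, 17.3 and 14.2% of the summed TPM in knockout libraries and 21.7, 26.0 and 23.0% in vector libraries. Within replication factor C, RFC4 made up 18.9 ± 0.82% in knockout libraries and 25.8 ± 1.5% in vector libraries (SD, n = 3 each). Both shares were lower in every knockout library than in any vector library.

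None of the 4 genes of deoxynucleotide supply was called (edgeR quasi-likelihood test, 0 also at an unadjusted p under 0.05 and 0 by DESeq2), and their median was 0.03. With a block for the replicate number and the length trend removed, RRM2 (−0.18, adjusted p = 0.0135) and TYMS (0.20, adjusted p = 0.0361) were called by edgeR's quasi-likelihood test. That setting was chosen after seeing the data and called 29.9% of all genes higher and 31.7% lower. The replicate numbers were not taken to pair the libraries. RRM2, the regulated subunit of ribonucleotide reductase, had 476, 419 and 451 CPM in knockout libraries and 531, 493 and 482 CPM in vector libraries, a log2 fold change of −0.16 ± 0.10 (adjusted p = 0.272, edgeR quasi-likelihood test). TYMS, thymidylate synthase, had 84.9, 84.9 and 93.7 CPM in knockout libraries and 78.6, 75.6 and 78.6 CPM in vector libraries, a log2 fold change of 0.18 ± 0.09 (adjusted p = 0.173, edgeR quasi-likelihood test). The groups did not overlap in either gene, with RRM2 lower and TYMS higher in every knockout library, and neither difference passed the test. RRM1, the large subunit of the reductase, and TK1, the S-phase thymidine kinase, had 0.15 and −0.10. TYMS overlaps ENOSF1 on the opposite strand over 10593 bases, and since the strand setting of the counting is not given in the sources used here, reads from both genes cannot be told apart in that overlap.

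Of the 6 regulators of the G1/S step 1 fell (16.7%, near the 17.4% of all genes tested) and 0 rose. CDK2, the kinase that partners cyclin E, had 105, 84.4 and 104 CPM in knockout libraries and 146, 121 and 122 CPM in vector libraries. The log2 fold change was −0.40 ± 0.13 (SE; edgeR quasi-likelihood adjusted p = 0.0477), just past the threshold, and the call was lost without any 1 of the 6 libraries (from 0.0734 to 0.0998). CCNE1, cyclin E1, had 12.9, 14.96 and 13.3 CPM in knockout libraries and 16.5, 17.5 and 17.7 CPM in vector libraries. It lay on the other side of the threshold, with −0.33 ± 0.11 (edgeR quasi-likelihood adjusted p = 0.0534), and was called without knockout replicate 2 (−0.40, adjusted p = 0.04). It was also called with library size only, with the length trend removed, in both FPKM fits and in both fits with a replicate block (adjusted p from 0.0132 to 0.0328, edgeR or limma). The replicate block called 28.4% of all genes lower, and 31.7% with the length trend removed too. CCNE2, cyclin E2, had 34.5, 18.6 and 31.8 CPM in knockout libraries and 43.0, 27.0 and 26.2 CPM in vector libraries, which overlapped (−0.18 ± 0.28, edgeR quasi-likelihood adjusted p = 0.66). Its sign turned without vector replicate 1 (0.09) or knockout replicate 2 (0.05). E2F1, an activating E2F factor, had 64.5, 81.7 and 68.8 CPM in knockout libraries and 75.3, 88.5 and 86.4 CPM in vector libraries. These overlapped too (−0.22 ± 0.13, edgeR quasi-likelihood adjusted p = 0.223), and the other activating factors E2F2 and E2F3 had −0.03 and 0.04. E2F1 was called in both fits with a replicate block (edgeR quasi-likelihood adjusted p = 0.0311 with the block alone).

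Among the 5 genes of chromatin assembly and histone supply, SLBP fell (20%, near the 17.4% of all genes tested) and 0 rose. SLBP (gene 7884, chromosome 4, 1692731 to 1712319), which binds the stem-loop of histone mRNAs in S phase, had 84.4, 80.4 and 93.6 CPM in knockout libraries and 125, 117 and 111 CPM in vector libraries. The groups did not overlap, and the log2 fold change was −0.45 ± 0.10 (edgeR quasi-likelihood adjusted p = 0.0127), called whichever library was left out. CHAF1B, a subunit of the histone chaperone CAF-1, and NASP, a chaperone of histone H3 and H4, had −0.24 and −0.22 and were not called. CHAF1A and UHRF1, which brings the maintenance methyltransferase to new DNA, had −0.01 and −0.12.

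Several members that changed lie among neighbours that shifted the same way. For each member the median log2 fold change was taken over the 40 nearest tested genes on its chromosome, members left out. GINS2 and GINS3 lay among neighbours with medians of −0.53 and −0.54, and CDT1 and ORC6, also on chromosome 16, among neighbours with −0.56 and −0.26. RFC4 and MCM2, on chromosome 3, had neighbour medians of −0.39 and −0.35, RPA3 of −0.36 and DSCC1 of −0.31. POLA1 and POLA2 had neighbour medians of 0.42 and 0.24. Of the 15 members that fell, 7 had a neighbour median of −0.2 or less, a limit chosen after the values were seen. Another 7 (CDC6, GMNN, MCM7, MCM10, RFC3, CDK2 and SLBP) had one between −0.2 and 0.2, from −0.18 to 0.08, and TIPIN had one of 0.21. GINS3 and CDT1 were less negative than their neighbours, while CDC6 and TIPIN were farther from theirs than any other member.

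Over all 58 members the log2 fold change and the neighbour median had a Pearson's r of 0.641 and a Spearman's rho of 0.579, given as a description, since members on 1 chromosome share neighbours and all values share the same 6 libraries. The 43 members with a neighbour median between −0.2 and 0.2 had a median of −0.16. Of these 43, 0 rose and 7 fell, so the share that fell was not above the 17.4% of all genes tested. The 8 members at or below −0.2 had a median of −0.62, and 7 of them fell. The 7 members at or above 0.2 had a median of 0.15. In all, 40 of 58 members lay below their own neighbours. The part of the neighbourhood in these changes was not tested.

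**Figure D3:**
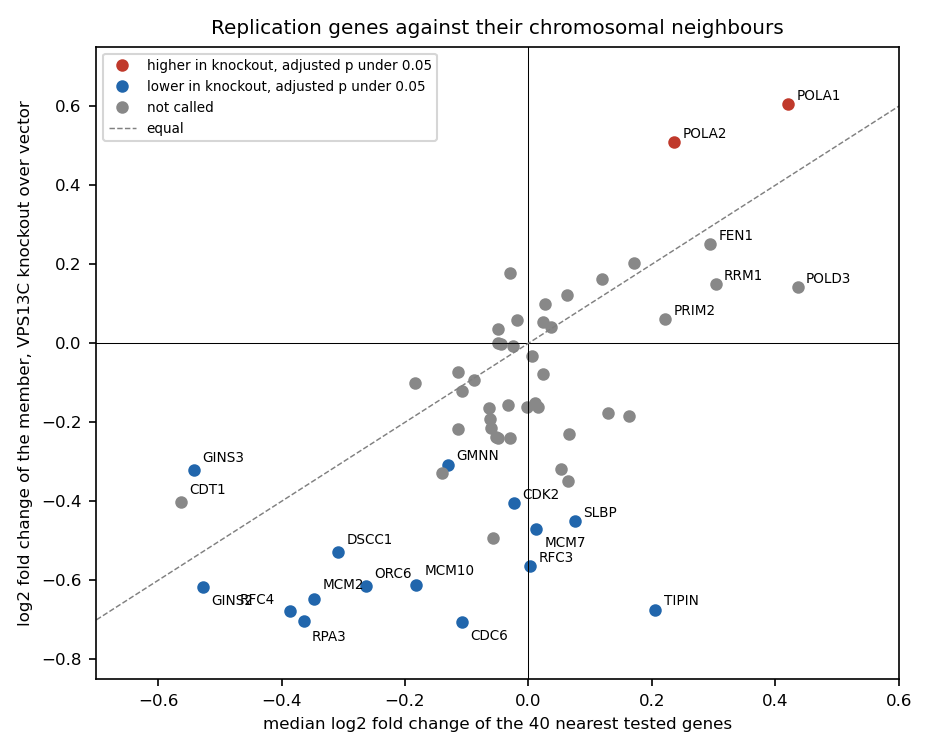
Log2 fold change of each of the 58 genes (y axis, VPS13C knockout over vector) against the median of its 40 nearest tested genes (x axis), with the dashed line where both are equal. GINS2, GINS3, CDT1, RFC4, MCM2 and RPA3 lie at the left with shifted neighbours, CDC6, MCM7, SLBP and RFC3 lie near 0 on the x axis and low on the y axis, and TIPIN lies low among neighbours that were higher.

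The transcript table gave the same leading transcript in both groups for 55 of 58 members, by the mean share of each transcript in the counts of its gene. The 3 others, POLA1, CCNE1 and E2F3, had shares that differed widely between libraries of 1 group. For CCNE1, transcript NM_001238.4 held 96.8, 1.24 and 41.7% of the counts in knockout libraries and 40.4, 14.9 and 0.305% in vector libraries. GINS3 was steadier. Its transcript NM_001126130.2 held 37.6, 39.2 and 36.1% in knockout libraries and 15.3, 29.2 and 24.3% in vector libraries, with no overlap of the groups, and NM_022770.4 held most of the rest. In NASP, NM_002482.4 held 45.4, 35.9 and 42.0% in knockout libraries and 34.0, 26.3 and 28.1% in vector libraries, also without overlap. GINS3 and NASP were not alone in this. Shares of a transcript of ORC1, ORC3, ORC5, PCNA, RFC5, POLA2, TYMS and CDK2 did not overlap either, while most transcripts overlapped. How often this occurs over all genes was not counted, and transcript shares were not tested.

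The wider pathway was read from 4 lists of genes outside the members, also chosen with earlier results of these data known. Of 86 genes 7 rose (8.14%) and 18 fell (20.9%), with a median of −0.11. The share called in either direction, 29.1%, was under the 35.1% of all genes tested, and the share that fell was near their 17.4%. Of 19 genes of nucleotide metabolism beyond the members 9 fell (47.4%, against 17.4% of all genes tested) and 1 rose (5.26%, against 17.8%), with a median of −0.33. PAICS, an enzyme of de novo purine synthesis, had 106, 92.5 and 105 CPM in knockout libraries and 208, 192 and 201 CPM in vector libraries, a log2 fold change of −0.98 ± 0.10 (adjusted p = 3.89e-04, edgeR quasi-likelihood test). UMPS, CAD and DHODH, which make pyrimidines de novo, fell with −0.58, −0.45 and −0.80. UMPS had 63.8, 64.6 and 65.4 CPM in knockout libraries and 95.8, 96.8 and 97.5 CPM in vector libraries, a very narrow spread (edgeR quasi-likelihood adjusted p = 0.002). DHODH lay among neighbours on chromosome 16 with a median of −0.53 and UMPS among neighbours with −0.25, while those of PAICS and CAD had −0.07 and −0.08. The other genes of this list that fell were DCTPP1 (−1.04), GART (−0.83), RRM2B (−0.76), CTPS1 (−0.50) and MTHFD1 (−0.33), and SAMHD1, which hydrolyses deoxynucleotides, rose (0.47). These 6 were named after their values were seen.

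Of 29 genes of cyclin D, the CDK inhibitors and the RB/E2F switch, 3 rose (10.3%) and 4 fell (13.8%), both under the shares of all genes tested (17.8% and 17.4%). CDKN2C, the CDK4 and CDK6 inhibitor p18, had 27.6, 32.5 and 34.8 CPM in knockout libraries and 13.3, 12.6 and 13.6 CPM in vector libraries. It rose with a log2 fold change of 1.26 ± 0.12 (edgeR quasi-likelihood adjusted p = 3.50e-04) among neighbours with a median of −0.03. MYC, a transcription factor that promotes G1 progression, had 153, 128 and 173 CPM in knockout libraries and 357, 262 and 293 CPM in vector libraries. It fell with −1.005 ± 0.16 (edgeR quasi-likelihood adjusted p = 0.00317), with neighbours at −0.25. CDC25A, the phosphatase that activates CDK2, fell with −0.52 ± 0.10 and E2F4, an E2F factor of repressor complexes, with −0.76 ± 0.15 (SE; edgeR quasi-likelihood adjusted p = 0.0052 and 0.00717). The neighbours of E2F4 on chromosome 16 had a median of −0.36. The inhibitor CDKN1A (p21) had means of 787 ± 36.8 CPM in knockout libraries and 885 ± 46.3 CPM in vector libraries (SD, n = 3 each) and was not called (edgeR quasi-likelihood adjusted p = 0.261). CDKN1A was called in 1 of 11 other settings that kept every library, and its neighbours had a median of 0.14. The other called genes of this list were CCND2, cyclin D2, and CDKN2B, the CDK4 and CDK6 inhibitor p15, which rose with 0.55 and 0.54, and E2F5, which fell with −0.92 (edgeR quasi-likelihood adjusted p = 0.00966, 0.0223 and 0.016). The level of E2F5 was low, with means of 0.939 CPM in knockout libraries and 1.89 CPM in vector libraries. CCND2, CDKN2B and E2F5 were named after their values were seen, and medians of their own neighbours were not taken. CDKN2A, cyclin D1 (CCND1) and RB1 had log2 fold changes of 0.17, 0.16 and 0.00 and were not called. Their neighbours had medians of 0.48, 0.44 and −0.02. CDKN2B (22002903 to 22009313) lies beside CDKN2A (21967752 to 21995324) on chromosome 9. CDKN2A was called in 2 of 11 other settings that kept every library, among them the length trend removed (edgeR quasi-likelihood adjusted p = 0.0441).

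Of 27 genes of origin firing and the rest of the replisome, 4 fell and 2 rose, with a median of −0.26, and the 22.2% called in either direction were under the 35.1% of all genes tested. DONSON, needed to assemble the active helicase, DBF4, which activates the CDC7 kinase, and POLE3, a small subunit of DNA polymerase epsilon, fell with −0.44, −0.52 and −0.31. PCLAF, a PCNA-binding factor, rose with 0.35. TOP1, a DNA topoisomerase, also fell (−0.54) and RNASEH2C, a subunit of ribonuclease H2, rose (0.78), both named after their values were seen. The adjusted p of DONSON, DBF4, POLE3 and PCLAF ran from 0.0125 to 0.0301 (edgeR quasi-likelihood test). Each of the 4 calls was lost without knockout replicate 3 (adjusted p = 0.0579, 0.0789, 0.0938 and 0.08 in that order, edgeR quasi-likelihood test), and those of DBF4, POLE3 and PCLAF also without other libraries. Of 11 further chromatin genes 18.2% were called, under the 35.1% of all genes tested. RBBP7, a histone-binding chaperone, rose (0.33) and HELLS, a remodelling ATPase, fell (−0.50), with adjusted p = 0.0239 and 0.0426 (edgeR quasi-likelihood test). RBBP7 lay among neighbours on chromosome X with a median of 0.43. POLE3 and PCLAF had neighbour medians of −0.38 and 0.21. Both calls were lost without vector replicate 3 (0.107 and 0.118) or knockout replicate 3 (0.116 and 0.126), RBBP7 also without vector replicate 2 or knockout replicate 1 (0.08 and 0.0723) and HELLS also without vector replicate 1 or knockout replicate 2 (0.0791 and 0.0697, edgeR quasi-likelihood adjusted p). For comparison, 1 of 10 genes of G2/M and mitosis fell (CDC20, 10%, against 17.4% of all genes tested). In that list 0 rose (against 17.8%), and the median was 0.05. CDC20 had −0.67 (edgeR quasi-likelihood adjusted p = 0.0157), a fall as large as those of the members that fell most. MKI67, TOP2A, CDK1 and CCNB1 of that list had 0.07, 0.06, 0.20 and −0.01. CCNB2, PLK1, AURKA, AURKB and BUB1 had 0.16, 0.01, 0.03, −0.21 and 0.29. The difference between these lists was not tested.

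**Figure D4:**
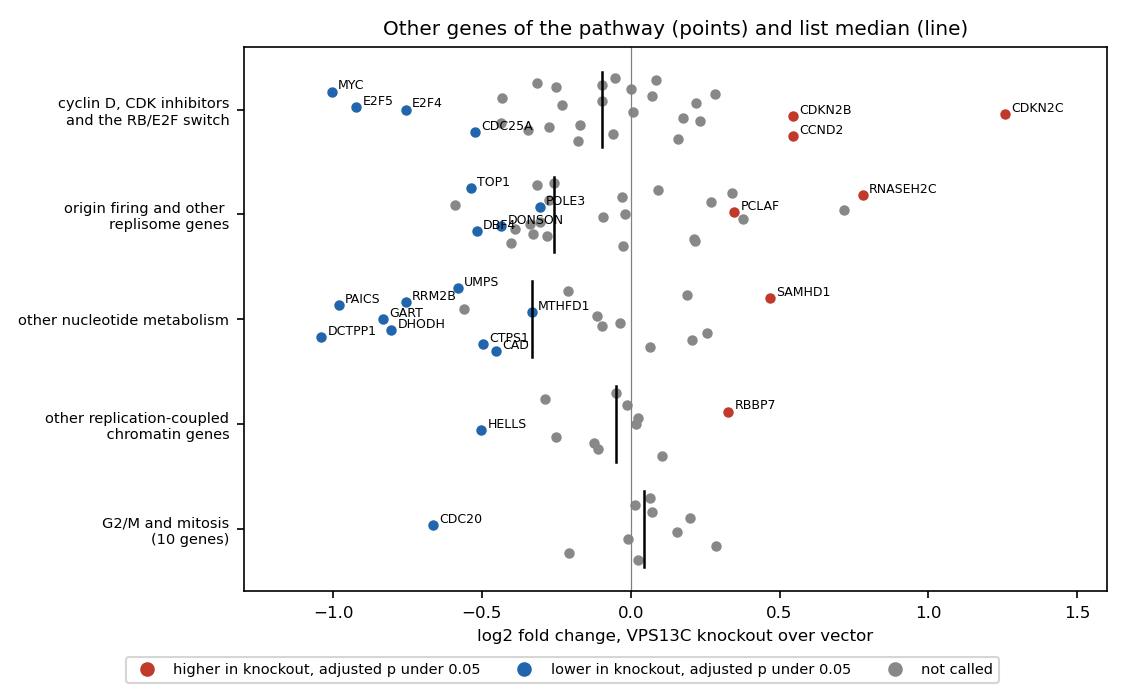
Log2 fold change (VPS13C knockout over vector, x axis) of each gene of the 4 pathway lists and of 10 G2/M genes, with a line at each list's median; blue points fell, red points rose and grey points were not called at an adjusted p under 0.05. Nucleotide metabolism has the lowest median, −0.33, and the G2/M genes the highest, 0.05.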

How the data were processed

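The build, hg38, comes from the submitters' processing notes, and single-end reads of 50 bases from the labels. The sources used here do not name the aligner, the counting tool or the strand setting. The gene and transcript tables, as deposited by the authors, give expected counts (estimated reads, with fractions for 15% to 16.5% of gene values), which were rounded before testing. FPKM values deposited by the authors served for an alternative and, with the counts, for gene lengths, and TPM values deposited by the authors for shares within complexes. Of the Entrez identifiers, 18200 were found in RefSeq's GRCh38.p14 table, all 58 members among them. The marker COL1A2 was not analysed here.

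A low-count filter (filterByExpr, minimum count 10) and TMM scaling preceded the test in edgeR 4.0.16 (quasi-likelihood, robust, prior count 2; R 4.3.3), knockout against vector, with Benjamini-Hochberg adjusted p under 0.05 as called. The standard error was taken as the absolute log2 fold change divided by the root of F. The members, lists and tests were chosen with earlier results of these data known. By the rule for named genes, values in every library are given for up to 4 called members of smallest p in each role and always for CDC6, CDT1, MCM2, PCNA, RRM2, TYMS, CCNE1, CCNE2, E2F1 and CDK2. Of each pathway list up to 4 called genes of smallest p are named, and always CDKN1A, CDKN2A, CCND1 and RB1; genes named beyond these were chosen after their values were seen. Alternatives were RLE factors, library size only, DESeq2 1.42.0, no filter beyond 1 count in all, a minimum of 10 CPM in 3 libraries, a block for the replicate number, the gene length trend removed (loess span 0.4), limma 3.58.1 on log2(FPKM + 1) and log2(FPKM + 0.1), and leaving out each library. The scripts were tested on simulated data. Figures were drawn with matplotlib 3.10.9.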

Additional observations from a re-analysis of the deposited data

How the results depend on the processing

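The count of members called was 17. It was 30 (4 higher, 26 lower) in a fit with a replicate block and 34 (4 higher, 30 lower) with the replicate block and the gene length trend removed together, a setting chosen after seeing the data. Over all genes these fits called 7939 (4049 higher, 3890 lower) and 8460 (4107 higher, 4353 lower), against 4821. The 17 members called were called in both. The replicate numbers were not taken to pair the libraries: the deviations of same-numbered libraries from their group means had correlations of 0.651, 0.681 and −0.215, and knockout replicate 3 was most like vector replicate 1 (0.394). Leaving out 1 library gave 7 to 14 members called (1 to 2 higher, 6 to 12 lower) and 3026 to 5043 genes (1551 to 2552 higher, 1475 to 2491 lower). Under RLE factors, library size only, DESeq2, both other filters, the length trend removed, both FPKM fits and scaling by genes outside the members (also chosen after seeing the data), 15 to 22 members were called and their median log2 fold change lay between −0.22 and −0.17. In these 9 settings CDK2 lost its call in 5, RFC3 in 4, and GMNN and MCM10 in 3 each, while CDC45 gained one in 5, CCNE1 in 4, CHAF1B and NASP in 3 each, RFC1 in 2, and GINS4 and FEN1 in 1 each. The cause of these differences was not tested. CCNE2 ran from −0.356 to 0.0877 with 1 library left out, above 0 without vector replicate 1 and without knockout replicate 2 (0.0478). RB1, at 0.00, was −0.0069 with RLE factors, −0.0086 with DESeq2, −0.0339 with library size only, −0.0337 with the length trend removed, −0.0195 with log2(FPKM + 1), −0.0204 with log2(FPKM + 0.1), −0.0258 with the replicate block and the length trend removed, and from −0.167 to 0.290 with 1 library left out.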
